A study of Mus musculus with 25 samples.

Results

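Lumbar dorsal root ganglia from mice with destabilization of the medial meniscus (DMM) were compared with ganglia from untreated (naive) mice at the latest time of the study, 16 weeks after surgery. The arrays were chosen by their titles: 3 were labelled DMM and 3 naive at 16 weeks, so 6 of the 25 arrays of the series entered the comparison, and 20260 of the 30142 named genes on the array were bright enough to be tested. In DMM the ligament that anchors the medial meniscus is cut, and osteoarthritis of the knee follows. The DMM mice were male C57BL/6, had DMM of the right knee when 10 weeks old and were killed 16 weeks later. The naive mice were males of the same strain, had no surgery and were killed when 26 weeks old. Sham-operated mice of the same time (3 arrays, right knee, surgery at the same age) are given as context, as are the DMM and naive mice at 4 and 8 weeks (3 arrays in each group). The tissue was labelled as ganglia L3 to L5 of male mice, and the labels do not give the side, the number of animals behind an array, or the time of day at which tissue was taken. Nothing in them says that the 3 arrays of a group came from separate animals, so the p-values measure the spread between these samples, which may be technical.

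The dorsal root ganglion holds the cell bodies of the sensory neurons of the limb, each wrapped by satellite glial cells, with Schwann cells around the axons, resident macrophages between the neurons, blood vessels, and a capsule continuous with the meninges. Macrophages take up debris through Fc receptors and complement, degrade it in lysosomes and present fragments of it on MHC class II. Nearly every cell also runs a circadian clock. In it BMAL1 (gene Arntl) and CLOCK switch on the Per, Cry and Nr1d1 genes and the output genes Dbp and Tef. The products of the Per, Cry and Nr1d1 genes shut BMAL1 activity or its gene down again. Because the transcripts of this loop rise and fall over the day, their level in a single sample depends on the hour at which it was taken.

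All values are the deposited log2 intensities, in which a step of 1 is a doubling, and differences are DMM minus naive with the standard error (SE) of the fit. Genes were tested with limma's moderated statistic, with p-values adjusted by Benjamini-Hochberg over the 20260 genes, and an adjusted p under 0.05 is called past the threshold. With a median residual SD of 0.121, a difference between 3 arrays and 3 had a 95% interval of about 0.203 to each side for a typical gene. An exact permutation test of a single gene cannot go below 0.10 in 3 against 3, so none is given. The tissue label was borne out by its defining markers: over 23 sensory neuron markers the mean level was 14.27 to 14.45 in the 6 arrays, while 8 markers of central nervous system glia lay near the level of the negative control probe sets (5.06 to 5.35). Of 17 T cell and NK cell markers 13 were among the named genes on the array. Of these 4 were bright enough to test, and all 4 lay below those controls.

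One DMM array stood apart. Over all genes tested, DMM replicate 3 had a mean correlation of 0.994 with the other DMM arrays and of 0.997 with the naive arrays. The other DMM arrays correlated about equally with both groups (0.996 and 0.996 for replicate 1, 0.995 and 0.995 for replicate 2), and each naive array was closer to its own group. In this array the genes of the meninges and of extracellular matrix were at or below the naive level, and interferon-stimulated genes were at their highest, as given below. Over all genes tested replicate 3 was the highest DMM array for 35.3% and the lowest for 7073 of 20260. Counts of this kind below are to be read beside these. The label of the array was kept, and results that rest on it are given with and without it.

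Between DMM and naive ganglia at 16 weeks 3 genes rose past the threshold, all of them higher in DMM: Arntl, the clock activator, Fabp7, the brain-type fatty acid-binding protein of satellite glia, and Lyz1, a lysozyme. These are 0.0148% of the genes tested. No gene fell past it (0%), although 685 genes were lower at an unadjusted p under 0.05 (3.38%). At that unadjusted threshold 1100 genes were higher (5.43%). All 3 DMM arrays lay above all 3 naive arrays for 1344 genes (6.63%), and below them for 1090 (5.38%). Of all genes tested 53% were higher in DMM, the share beside which the counts of higher list members below are to be read. Counts of list members without overlap are to be read beside the 6.63% and 5.38%. Those at an unadjusted p under 0.05 are to be read beside the 5.43% and 3.38%. Most differences were small, with a median size of 0.08, and only 36 genes were higher by more than 1 and 6 lower by more than 1. DMM replicate 3 weighed heavily on the count: without it 325 genes passed the threshold, 289 higher (1.43%) and 36 lower (0.178%), while 250 of these 325 overlapped between the groups once that array was put back. Only Arntl passed without DMM replicate 1, and 5 genes passed without DMM replicate 2. Apart from Arntl, genes said below to pass without replicate 3 thus did not pass without replicate 1.

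**Figure D1:**
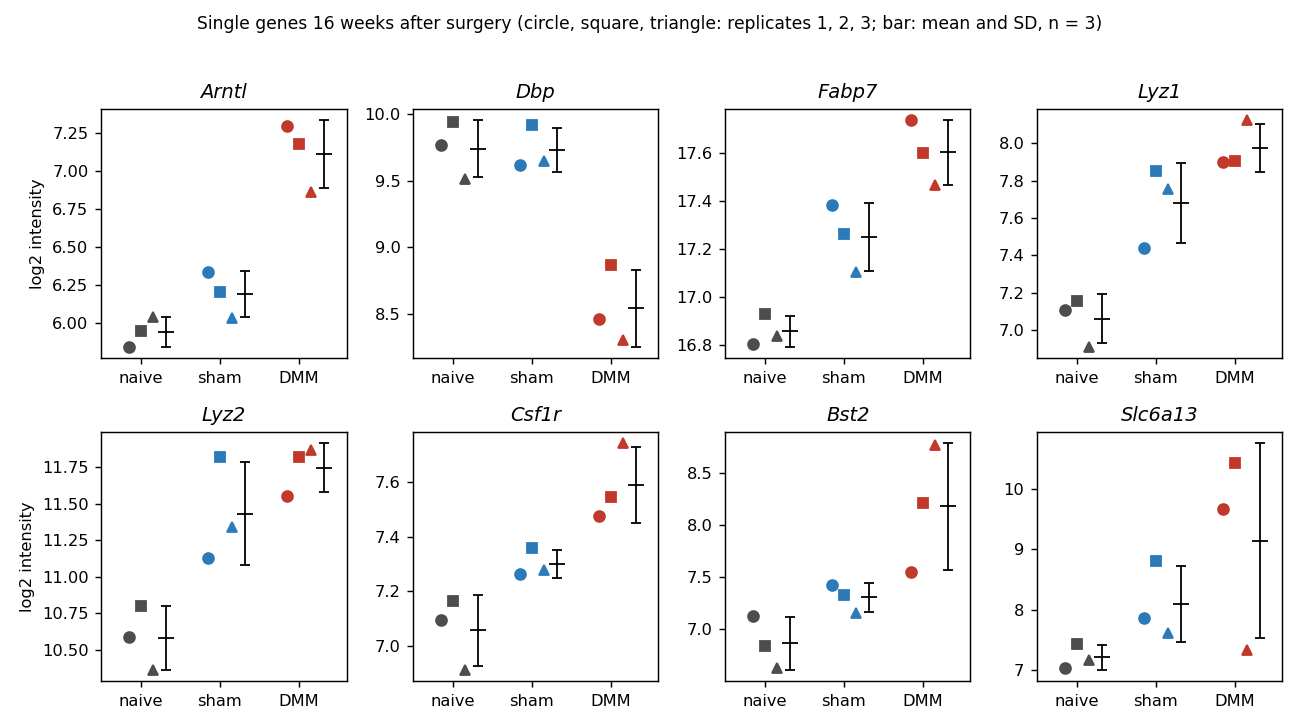
Deposited log2 intensity (vertical axis) of 8 genes in each of the naive, sham and DMM arrays at 16 weeks; each point is an array, and bars give the mean and SD (n = 3). Arntl, Fabp7, Lyz1, Lyz2, Csf1r and Bst2 show DMM points above all naive points and Dbp shows them below, whereas for Slc6a13 the third DMM array lies at 7.33, among the naive arrays.

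Arntl encodes BMAL1, the activating arm of the clock. It stood at 7.29, 7.17 and 6.86 in the DMM arrays and at 5.85, 5.95 and 6.04 in the naive arrays. Every DMM array lay above every naive and every sham array. The means were 7.11 ± 0.22 and 5.94 ± 0.10 (SD, n = 3 each), a 2.24-fold difference (1.17 ± 0.12 log2, limma adjusted p = 0.000153). Sham arrays gave 6.34, 6.21 and 6.04, at or just above the naive range. Arntl was the only gene past the threshold between DMM and sham (0.00494% of genes; 0.91, limma adjusted p = 0.00646), a comparison that uses the same DMM arrays. Fitted on the 6 arrays alone, where a single gene's spread rests on few arrays, Arntl missed the threshold (adjusted p = 0.272), as it did with the 9 arrays of this time (0.088).

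Dbp, a clock output transcription factor that binds D-box sequences, gave 8.46, 8.87 and 8.31 in DMM against 9.76, 9.94 and 9.51 in naive ganglia. All DMM arrays lay below all naive and all sham arrays (9.62, 9.92 and 9.64). The difference of -1.20 ± 0.22 did not pass the threshold (limma adjusted p = 0.0629). It passed without DMM replicate 3, where it was smaller (-1.08, adjusted p = 0.0300), but not without replicate 1 or replicate 2. Per2, a repressor of the clock, stood at 6.41, 6.59 and 6.41 against 7.02, 7.15 and 6.84 (-0.54 ± 0.13, adjusted p = 0.218). Per3, of the same family, gave 6.85, 7.25 and 6.69 against 7.65, 7.60 and 7.36 (-0.60 ± 0.17, adjusted p = 0.395). Per1 had means of 7.03 ± 0.25 against 7.63 ± 0.12 (SD, n = 3 each; -0.60 ± 0.19, adjusted p = 0.462). All 3 Per genes were lower in every DMM array than in any naive array, and none passed the threshold.

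Nr1d1 encodes REV-ERB alpha, the repressor of Arntl, and stood at 8.68, 9.40 and 9.13 in DMM against 10.05, 10.01 and 9.78 (-0.88 ± 0.27, limma adjusted p = 0.454). Cry2, a partner of the PER proteins, was also lower without overlap (-0.27 ± 0.10, adjusted p = 0.495), as was Tef, a relative of Dbp (-0.36 ± 0.14, adjusted p = 0.521). Clock, the partner of BMAL1, lay at 12.98, 13.15 and 13.01 in DMM and at 12.83, 12.84 and 12.83 in naive ganglia, above them in every array but by little (0.21 ± 0.06, adjusted p = 0.445). Some loop members showed no separation: Cry1 (-0.11), Npas2 (-0.06), Nr1d2 (-0.23), Bhlhe41 (-0.20) and Hlf (0.40 ± 0.33) had overlapping groups. Over the 15 core clock genes tested 2 were higher and 5 lower without overlap, beside 6.63% and 5.38% of all genes. Their median difference was -0.19, against a median of 0.01 over all genes. Of the 15 output genes 1 was higher and 4 were lower without overlap, with a median of -0.06. By role, the activators Arntl and Clock were higher and the repressors Per1, Per2, Per3, Cry2 and Nr1d1 and the output genes Dbp and Tef lower, in each case without overlap. The time of day of sampling was not given, and its part in this was not tested.

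Per3 carries a pair of D-boxes, sites of Dbp, Tef and Hlf, in the region before its start. It is shown because Dbp, Tef and Per3 itself were lower in the DMM arrays, although none of the 3 passed the threshold. Hlf was not lower, and its groups overlapped. The RefSeq promoter table (build GRCm38.p6) held windows of 300 bases, 250 before and 50 after the start, for 12266 of the genes tested. The 250 bases before the Per3 start, at chr4:151044666-151044915 on the minus strand, follow 5′ to 3′ with the D-box matches in capitals.
Per3: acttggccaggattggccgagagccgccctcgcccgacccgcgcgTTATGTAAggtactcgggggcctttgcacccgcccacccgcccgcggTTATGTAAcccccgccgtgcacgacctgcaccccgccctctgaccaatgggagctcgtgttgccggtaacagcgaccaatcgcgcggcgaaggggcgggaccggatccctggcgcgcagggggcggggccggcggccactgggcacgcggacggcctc
The motif searched was TTATGNAA on both strands, and its matches began 205 and 158 bases before the start without overlapping each other or another motif. It occurs in 3.39% of all 32851 windows and 2.73% of those of genes tested. Of 12 core clock genes with a window 2 held a match, Per3 and Per1, and the windows of Dbp and Tef held none. A link between these factors and the level of Per3 was not tested. A match describes the letters of the window, not binding.

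Fabp7 codes for the fatty acid-binding protein by which satellite glia are commonly recognised. It stood at 17.74, 17.60 and 17.47 in DMM against 16.80, 16.93 and 16.84 in naive ganglia. Every DMM array was above every naive array and also above every sham array (17.38, 17.26 and 17.10). The means of 17.60 ± 0.13 and 16.86 ± 0.06 (SD, n = 3 each) differed 1.68-fold (0.74 ± 0.11 log2, limma adjusted p = 0.0146). Without DMM replicate 3 the difference was 0.81, and the adjusted p was 0.0887 with DMM replicate 1 left out, 0.108 with naive replicate 1 left out and 0.136 with naive replicate 3 left out. It was 0.272 when only the 6 arrays were fitted and 0.177 with only the 9 arrays of this time. Of the 14 satellite glia markers tested Fabp7 was the only one past the threshold, and their median was 0.09. Kcnj10, the glial potassium channel, gave 8.39, 8.43 and 8.81 against 8.70, 8.46 and 8.60 (-0.04 ± 0.16). Slc1a3, a glutamate transporter, differed by 0.11 ± 0.08, Sox10, a glial transcription factor, by -0.14 ± 0.13, and Apoe, a lipid carrier, by 0.07 ± 0.07. In whole ganglia, a change in the number of cells of a type and a change in RNA per cell cannot be told apart.

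Myelin genes of Schwann cells were little different. Of 14 tested, 12 were higher in DMM with a median of 0.16, and none passed the threshold or an unadjusted p under 0.05. Without overlap 1 was higher (Cnp, 0.13 ± 0.09), which is near the 6.63% of all genes. Mbp, myelin basic protein, stood at 11.33, 11.28 and 10.95 against 11.15, 10.99 and 10.79, and Pmp22, the peripheral myelin protein, at 17.68, 17.77 and 17.53 against 17.58, 17.70 and 17.57. In 13 of the 14 genes DMM replicate 3 was the lowest DMM array.

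Lysozyme, the enzyme that breaks bacterial cell walls and is made by macrophages and granulocytes, was higher from both of its genes. Lyz1 stood at 7.90, 7.90 and 8.12 in DMM and at 7.11, 7.16 and 6.91 in naive ganglia. The groups did not overlap, and the sham arrays (7.44, 7.85 and 7.75) lay in between. The means were 7.98 ± 0.13 and 7.06 ± 0.13 (SD, n = 3 each), a 1.89-fold difference (0.92 ± 0.15 log2, limma adjusted p = 0.0290). Lyz1 depended on single arrays: its adjusted p was 0.0848 without DMM replicate 1, 0.0501 without DMM replicate 2, 0.0156 without DMM replicate 3, and 0.108, 0.0707 and 0.196 without each naive array in turn. It was also over 0.05 with only the 6 arrays (0.272), with only the 9 arrays of this time (0.177) and with the replicate number as a block (0.103). Lyz2, the macrophage lysozyme, gave 11.56, 11.82 and 11.87 against 10.59, 10.80 and 10.37, a 2.24-fold difference (1.16 ± 0.21, limma adjusted p = 0.0629). It passed without DMM replicate 3 (1.11, adjusted p = 0.0253), but not without replicate 1 or replicate 2. Lyz1 and Lyz2 are close copies, and how far their probes tell the transcripts apart was not tested.

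Genes that mark macrophages were higher in DMM ganglia as a list, although no single one passed the threshold. Of 17 tested 16 were higher, with a median of 0.27 beside 0.01 over all genes, and 8 were higher without overlap against 0 lower. Csf1r, the receptor for macrophage colony-stimulating factor, stood at 7.48, 7.55 and 7.74 against 7.09, 7.16 and 6.91 (0.53 ± 0.11, limma adjusted p = 0.113). Mrc1, the mannose receptor, gave 9.02, 8.99 and 9.04 against 8.40, 8.56 and 8.26 (0.61 ± 0.14, adjusted p = 0.172). Both were higher in each DMM array than in any naive array. Adgre1, the gene of an adhesion receptor that marks mouse macrophages, did so too (6.60, 6.41 and 7.07 against 6.15, 6.28 and 6.07; 0.52 ± 0.31, adjusted p = 0.642), whereas for Cd68 the groups overlapped (0.30 ± 0.13, adjusted p = 0.551). The chemokine receptor gene Cx3cr1 differed by 0.51 ± 0.15 (adjusted p = 0.398). The mean over the list was 6.68, 6.79 and 6.89 in the DMM arrays, 6.64, 6.69 and 6.58 in the sham arrays and 6.46, 6.50 and 6.39 in the naive arrays. Without DMM replicate 3 the median was 0.25 and 15 were higher.

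Genes of lysosomes and of uptake were mostly higher too. Of 18 genes of lysosomes and lysozymes, which include Lyz1 and Lyz2, 16 were higher, 7 without overlap and 0 lower without overlap, with a median of 0.18. Ctss, the cathepsin that trims class II ligands, stood at 7.54, 7.82 and 8.17 against 7.37, 7.07 and 6.88, higher without overlap (0.73 ± 0.16, limma adjusted p = 0.133). Cybb, the catalytic subunit of the phagocyte oxidase, gave 6.68, 6.57 and 7.02 against 6.30, 6.32 and 5.99 (0.55 ± 0.13, adjusted p = 0.190), and the cathepsin gene Ctsc differed by 0.38 ± 0.13 (adjusted p = 0.489). Among 15 genes of Fc receptor and TREM2 signalling, 6 were higher and 0 lower without overlap and the median was 0.13. Fcgr3, a low-affinity IgG receptor, stood at 6.67, 6.90 and 6.99 against 6.47, 6.47 and 6.26 (0.46 ± 0.11, adjusted p = 0.207). The signalling adaptor Tyrobp differed by 0.35 ± 0.11 (adjusted p = 0.478), and Clec7a, the receptor for fungal glucans, by 0.58 ± 0.17 (adjusted p = 0.395). Of 15 complement genes 12 were higher, 4 without overlap, and 1 (C7, -0.20) was lower without overlap, with a median of 0.17. C1qb, a chain of the initiating complex, gave 8.14, 8.14 and 8.64 against 7.81, 7.63 and 7.33 (0.72 ± 0.24, adjusted p = 0.468).

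MHC class II genes had one of the largest medians among the lists, 0.65 over 9 genes, 8 of them higher. Without overlap 6 were higher and 1 lower. H2-Ab1, the beta chain of I-A, stood at 10.66, 10.47 and 11.12 in DMM against 10.08, 10.00 and 9.60 in naive ganglia (0.86 ± 0.22, limma adjusted p = 0.317). Its partner H2-Aa gave 6.56, 6.44 and 6.78 against 6.08, 5.86 and 5.68 (0.72 ± 0.18, adjusted p = 0.304), and H2-DMb1, a peptide-loading chain, gave 6.56, 6.50 and 6.41 against 6.15, 5.85 and 5.53 (0.65 ± 0.18, adjusted p = 0.353). These genes shared the separation of all DMM from all naive arrays, and none passed the threshold. Ciita, the class II transactivator, lay at the level of the negative controls and differed by 0.13. Without DMM replicate 3 the median of the list was 0.48. Among markers of other immune cells, the 7 monocyte genes had a median of 0.24, with 6 higher. Of these 7, 2 were higher and 1 lower without overlap, beside 6.63% and 5.38% of all genes. Neutrophil and alarmin genes, with a median of 0.31, are given below. The medians of the mast cell, B cell and dendritic cell lists were near 0. The mast cell protease gene Cpa3 differed by 0.50 (adjusted p = 0.861) and the B cell receptor gene Cd79a by 0.01 (0.987).

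**Figure D2:**
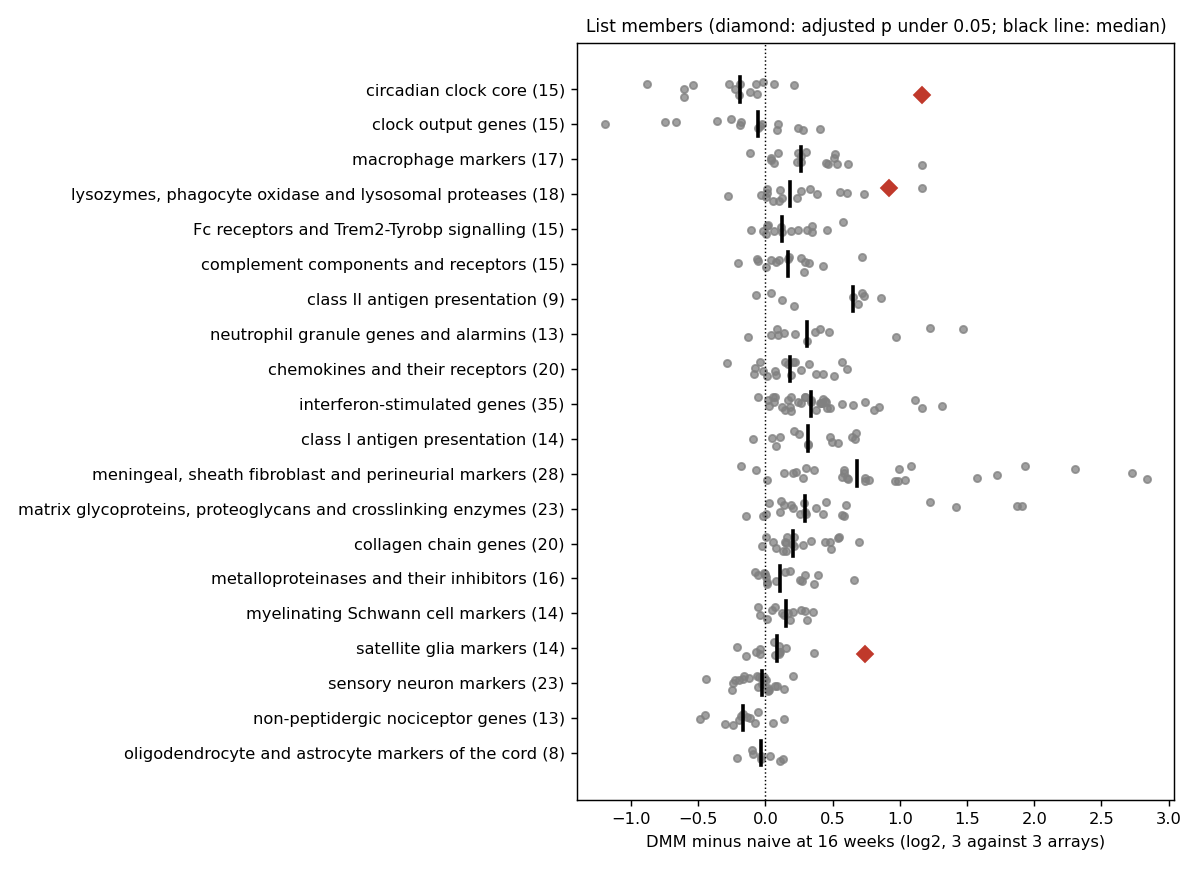
Difference between DMM and naive ganglia at 16 weeks (log2, horizontal axis) for every tested member of 20 gene lists (rows); each point is a gene, the black line is the list's median, and diamonds mark genes with an adjusted p under 0.05. The macrophage list has its median at 0.27 with 16 of 17 genes above 0, the class II list at 0.65 and the meningeal list at 0.68, while the sensory neuron list has its median at -0.03.

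Interferon-stimulated genes were higher on average but unevenly between arrays. Of 35 tested 34 were higher, 9 without overlap and 0 lower without overlap, with a median of 0.34. The list mean was 7.22, 7.54 and 8.06 in the DMM arrays and 7.17, 7.23 and 7.22 in the naive arrays, so DMM replicate 3 carried the largest part, and it was the highest DMM array for 32 of the 35. Without it the median was 0.15 and 25 were higher. Bst2, which tethers budding virions to the cell, stood at 7.56, 8.22 and 8.78 against 7.13, 6.84 and 6.63, with sham at 7.43, 7.33 and 7.16. All DMM arrays were above all others, a 2.49-fold difference (1.32 ± 0.28, limma adjusted p = 0.113) that was 1.02 without DMM replicate 3 (adjusted p = 0.0728). Isg15, the ubiquitin-like modifier, gave 5.15, 5.32 and 5.47 against 4.96, 4.86 and 4.87 (0.41 ± 0.11, adjusted p = 0.353). Its separation held in every array, near the negative controls.

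For other members most of the difference lay in replicate 3. Ifit1, which binds foreign RNA, stood at 8.09, 8.77 and 10.80 in DMM against 8.19, 8.45 and 8.60 (0.81 ± 0.51, limma adjusted p = 0.667), and differed by 0.02 without that array. The mitochondrial protein gene Ifi27l2a gave 5.81, 6.75 and 9.23 against 6.14, 6.02 and 6.15 (1.16 ± 0.54, and 0.18 without it). Oasl2, an oligoadenylate synthetase-like gene, gave 8.10, 8.60 and 9.83 against 7.99, 8.02 and 7.99 (0.84 ± 0.33, and 0.35 without it). In each case DMM replicate 1 was close to the naive arrays, replicate 2 somewhat above them and replicate 3 far above them.

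MHC class I genes followed the same order of arrays. Over 14 genes the list mean was 8.55, 8.77 and 9.39 in DMM and 8.57, 8.55 and 8.59 in naive ganglia, 13 genes were higher and 2 were so without overlap. The median of 0.32 was 0.09 without DMM replicate 3, which was the highest DMM array for 12 of the 14. B2m, the light chain of class I, stood at 16.73, 17.02 and 17.95 against 16.72, 16.44 and 16.52 (0.67 ± 0.21, limma adjusted p = 0.462). H2-K1, a heavy chain, gave 8.94, 9.31 and 10.69 against 9.13, 8.89 and 8.90 (0.67 ± 0.28, and 0.15 without replicate 3). Tapbp, which loads peptides onto class I, had 9.71, 9.95 and 10.17 against 9.65, 9.63 and 9.60 (0.32 ± 0.08, adjusted p = 0.328) and was above the naive arrays in all DMM arrays.

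The region before the start of many interferon-stimulated genes holds the interferon-stimulated response element, and those of 3 genes are shown for how they compare in sequence with how they differ in the arrays: Bst2 and Isg15 were higher in all DMM arrays, and Ifit1 in replicate 3 and to a small degree in replicate 2. The core searched was GAAANNGAA on both strands. It was present in 16 of 27 interferon-stimulated genes with a window (59.3%), in 8.65% of the windows of genes tested and in 8.56% of all windows. The list was drawn up from known interferon targets, so this share describes the list and is no result of the arrays. The 250 bases before each start are from RefSeq, build GRCm38.p6, written 5′ to 3′ along the gene's strand with matches in capitals: Bst2 at chr8:71537473-71537722 (minus strand), Isg15 at chr4:156200819-156201068 (minus strand) and Ifit1 at chr19:34640639-34640888 (plus strand).
Bst2: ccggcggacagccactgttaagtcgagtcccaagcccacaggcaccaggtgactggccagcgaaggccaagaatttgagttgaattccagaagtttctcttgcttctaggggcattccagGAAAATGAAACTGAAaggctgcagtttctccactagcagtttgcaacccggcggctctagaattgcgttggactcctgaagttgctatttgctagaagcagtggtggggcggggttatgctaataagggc
Isg15: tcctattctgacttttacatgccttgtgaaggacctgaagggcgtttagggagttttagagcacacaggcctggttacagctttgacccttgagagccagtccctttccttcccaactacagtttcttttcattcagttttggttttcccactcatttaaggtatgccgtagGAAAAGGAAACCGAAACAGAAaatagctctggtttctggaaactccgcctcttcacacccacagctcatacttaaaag
Ifit1: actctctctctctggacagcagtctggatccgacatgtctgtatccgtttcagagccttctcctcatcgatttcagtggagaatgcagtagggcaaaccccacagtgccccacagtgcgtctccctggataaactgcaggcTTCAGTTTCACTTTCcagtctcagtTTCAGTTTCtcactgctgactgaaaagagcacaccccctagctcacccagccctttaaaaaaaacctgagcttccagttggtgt
In Bst2 a pair of overlapping matches begins 130 and 124 bases before the start, and in Isg15 a run of 3 overlapping matches begins 78, 72 and 66 bases before it. Ifit1 has its matches on the opposite strand, an overlapping pair at 109 and 103 bases and a separate one at 84 bases. Oasl2 had no match in its window, which says only that these letters are not there. None of these matches overlapped another motif searched.

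**Figure D3:**
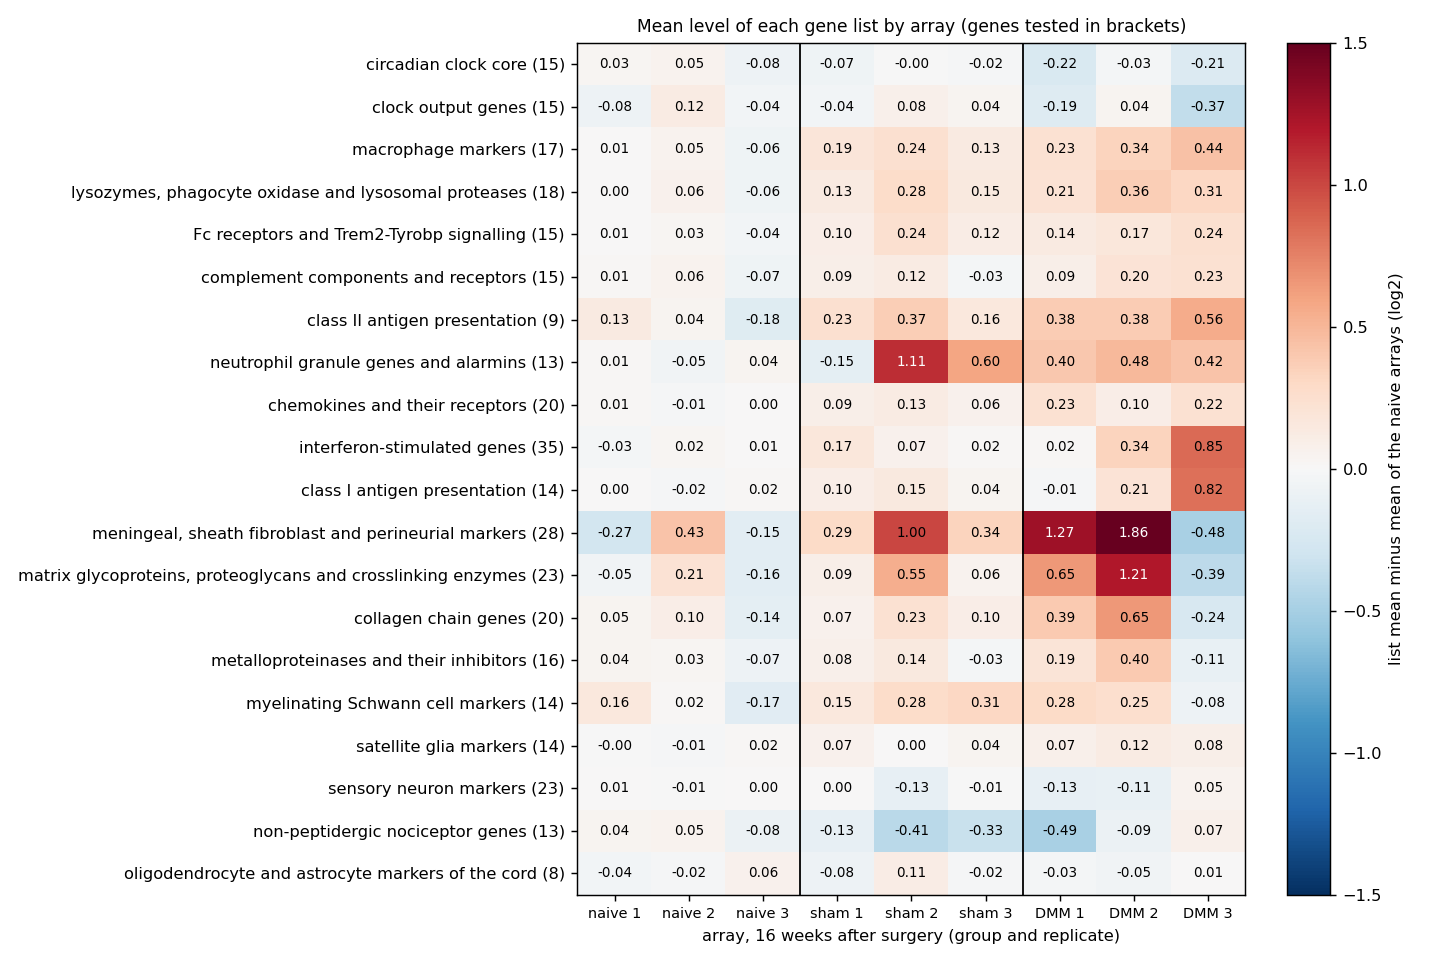
Mean of each of 20 gene lists (rows) in each of the 9 naive, sham and DMM arrays at 16 weeks (columns), minus the mean over the naive arrays; colour gives the difference in log2. The third DMM column is highest for interferon-stimulated and class I genes and lowest of the DMM columns for meningeal, matrix and collagen genes, while the macrophage and class II rows are higher in all 3 DMM columns.

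Meningeal and matrix genes gave the widest differences and the least agreement between arrays. Of 28 genes of the meninges and their fibroblasts 26 were higher in DMM with a median of 0.68, 11 at an unadjusted p under 0.05, but 0 were higher without overlap. The list mean was 9.60, 10.18 and 7.84 in the DMM arrays, 8.61, 9.32 and 8.66 in the sham arrays and 8.05, 8.75 and 8.17 in the naive arrays. DMM replicates 1 and 2 lay above every naive array for 25 of the 28 genes while replicate 3 did not, a pattern seen for 11% of all genes, and replicate 3 was the lowest DMM array for all 28. Slc6a13, a transporter for GABA and taurine found in the meninges, stood at 9.67, 10.42 and 7.33 against 7.04, 7.43 and 7.17 (1.93 ± 0.56, limma adjusted p = 0.398). Without DMM replicate 3 the difference was 2.84 (adjusted p = 0.00391), and without DMM replicate 2 it was 1.29 (adjusted p = 0.926). Thbd, thrombomodulin, gave 9.23, 9.72 and 7.98 against 7.67, 8.16 and 7.84 (1.09 ± 0.30, adjusted p = 0.353), and 1.59 without replicate 3 (adjusted p = 0.00206). Decorin (Dcn), abundant in fibroblasts, had 16.12, 16.26 and 15.19 against 15.59, 15.77 and 15.11 (0.37 ± 0.28, adjusted p = 0.731). The part of meningeal tissue left on the ganglia in these differences was not tested.

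The matrix list behaved alike, with 21 of 23 genes higher, a median of 0.29 and 0 higher without overlap. Fn1, fibronectin, stood at 12.79, 14.04 and 9.26 in DMM against 9.61, 10.87 and 9.98 in naive ganglia (1.87 ± 0.88, limma adjusted p = 0.560). Replicate 3 was below every naive array and the other DMM arrays were above them all, so the difference was 3.26 without it (adjusted p = 0.0253). Mmp14, a membrane-bound collagenase, gave 9.93, 10.37 and 9.29 against 9.29, 9.22 and 9.10 (0.66 ± 0.18, adjusted p = 0.328), and 0.95 without replicate 3 (adjusted p = 0.00292). Of 20 collagen genes 19 were higher with a median of 0.20, 2 of them without overlap, which is near the 6.63% of all genes. The fibrillar collagen genes Col1a1 (0.34 ± 0.35) and Col3a1 (0.49 ± 0.34) had overlapping groups. Without DMM replicate 3 the medians were 1.26 for meningeal genes, with 11 past the threshold, 0.66 for matrix genes, with 6 past it (Fn1, Fmod, Thbs1, Thbs2, Lama4 and Vtn), and 0.33 for collagens, with 2 past it (Col5a2 and Col8a1). Without DMM replicate 2 the matrix median was 0.04.

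**Figure D4:**
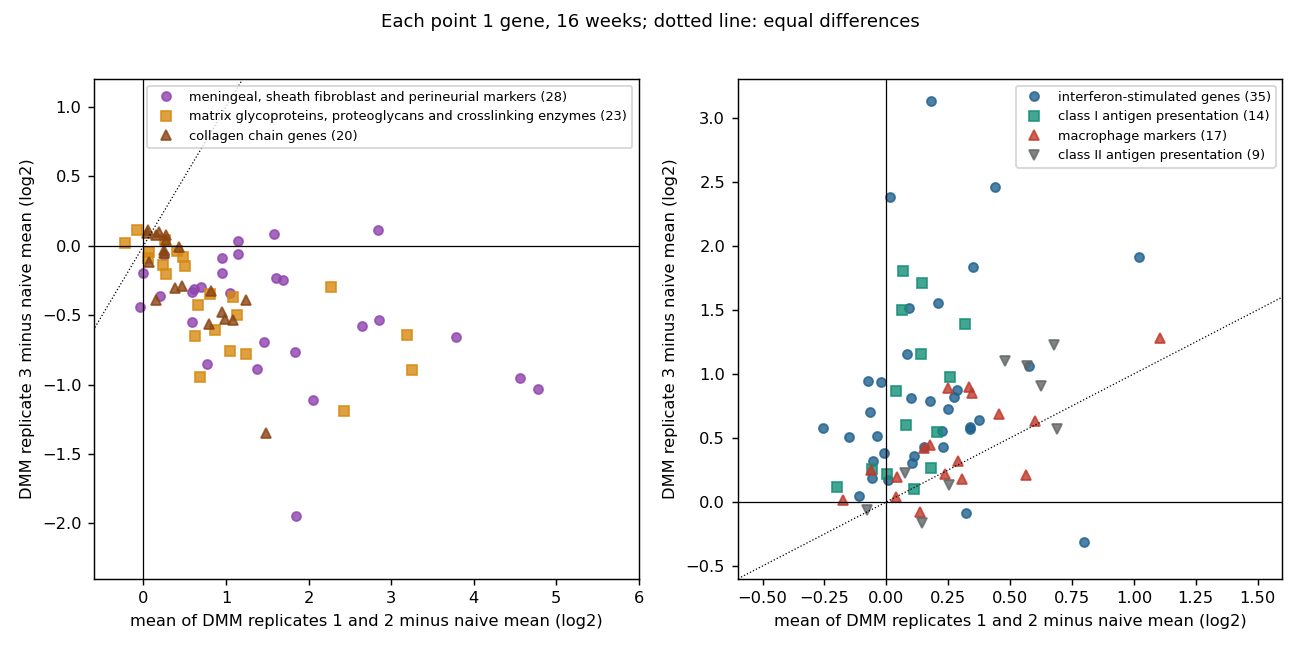
For each gene of the lists named in the panels, its level in DMM replicate 3 (vertical axis) against its mean in DMM replicates 1 and 2 (horizontal axis), each as the log2 difference from the naive mean at 16 weeks; the dotted line marks equal values. Most meningeal, matrix and collagen genes (left) lie to the right of 0 and at or below the naive mean in replicate 3, and most interferon-stimulated and class I genes (right) lie above the dotted line, with macrophage and class II genes on both sides of it.

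The study's title names innate neuro-immune pathways and pain, and 12 genes of pain and neuroimmune signalling were looked up, of which 8 were tested. Of these 6 were higher in DMM, 4 without overlap, with a median of 0.20, and none passed the threshold. S100a8, a calgranulin that signals through TLR4, stood at 8.36, 8.29 and 8.78 against 7.43, 6.39 and 7.19 (1.47 ± 0.67, limma adjusted p = 0.556). The sham arrays were scattered over 6.34, 10.27 and 8.93, so sham ganglia covered both groups. Its partner S100a9 gave 7.93, 7.98 and 8.40 against 7.05, 6.57 and 7.02 (1.22 ± 0.65, adjusted p = 0.610), with sham again at 6.02, 10.09 and 9.02. The neutrophil granule gene Ngp, of the same list of 13 alarmin and neutrophil genes, differed by 0.97 ± 0.43 (adjusted p = 0.547). Of that list 12 were higher, 9 without overlap, with a median of 0.31, and 5 of its members lay under the negative controls.

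Tlr4, the receptor for endotoxin and calgranulins, stood at 7.43, 7.33 and 6.90 against 7.04, 7.02 and 6.98 (0.20 ± 0.13, limma adjusted p = 0.673). Ccl2, the monocyte chemoattractant, gave 6.28, 6.18 and 6.40 against 6.07, 6.02 and 6.10 (0.22 ± 0.20, adjusted p = 0.773), and its receptor Ccr2 gave 5.70, 5.73 and 5.76 against 5.56, 5.52 and 5.50 (0.20 ± 0.16, adjusted p = 0.729). Ligand and receptor were both above the naive arrays in every DMM array, by differences that the spread between all arrays does not set apart from 0. Of 20 chemokine genes 15 were higher and 6 were so without overlap, with a median of 0.18. Cxcl16 differed by 0.57 ± 0.15 (adjusted p = 0.353), and by 0.73 without DMM replicate 3 (adjusted p = 0.0250), and Ccl12 by 0.61 ± 0.19 (adjusted p = 0.462).

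Pain genes of the neurons themselves differed by little. Tac1, which encodes substance P, stood at 11.47, 11.69 and 11.79 against 11.55, 11.59 and 11.59 (0.07 ± 0.15, limma adjusted p = 0.921). Scn9a, the sodium channel Nav1.7, gave 14.55, 14.61 and 14.73 against 14.71, 14.61 and 14.64 (-0.02 ± 0.09, adjusted p = 0.965). Trpv1, the capsaicin receptor, gave 11.26, 11.67 and 11.82 against 11.62, 11.70 and 11.46 (-0.01 ± 0.26, adjusted p = 0.997). In all 3 the groups overlapped. Over 23 sensory neuron markers 8 were higher, with a median of -0.03 and 1 (Th) lower without overlap, and no member passed the threshold. The list mean was 14.27, 14.29 and 14.45 in DMM and 14.40, 14.39 and 14.40 in naive ganglia, so replicates 1 and 2 lay slightly below the naive arrays and replicate 3 did not. Rbfox3, the neuronal nuclear antigen NeuN, stood at 11.86, 11.79 and 12.10 against 12.05, 12.23 and 12.21 (-0.25 ± 0.08, adjusted p = 0.462), and differed by -0.34 without replicate 3 (adjusted p = 0.0354). Markers of non-peptidergic nociceptors had a median of -0.17 with 2 of 13 higher, among them Scn11a (-0.24 ± 0.15) and Mrgprd (-0.19 ± 0.14), both with overlapping groups. The axon injury gene Atf3 differed by 0.03 (adjusted p = 0.991), and the median over 23 injury genes was 0.03.

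Further genes were taken by smallest unadjusted p among those whose groups did not overlap. Sat1, which acetylates polyamines, stood at 9.52, 9.49 and 9.12 against 8.84, 8.86 and 8.80 (0.54 ± 0.09, limma adjusted p = 0.0596), and gave 0.67 without DMM replicate 3 (adjusted p = 0.00115). Plbd1, a lysosomal phospholipase-like protein, gave 6.31, 6.15 and 6.51 against 5.68, 5.82 and 5.65 (0.61 ± 0.11, adjusted p = 0.0629). Samd9l, an interferon-inducible gene, gave 8.43, 8.61 and 8.29 against 7.72, 7.88 and 7.94 (0.60 ± 0.12, adjusted p = 0.0999). None of these reached the threshold with all arrays, and all 3 did without DMM replicate 3 (adjusted p = 0.0301 for Plbd1 and 0.0126 for Samd9l). Without DMM replicate 1 none of the 3 did. Smaller separations on the higher side were those of Rab8b, a vesicle GTPase (0.28 ± 0.06), Srek1, a splicing regulator (0.32 ± 0.07), and Arhgap18 (0.55 ± 0.12), each with an adjusted p of 0.113. Arhgap18 lay at 7.83, 8.03 and 7.34 against 7.15, 7.24 and 7.17, so its size again rests on replicates 1 and 2, and it was 0.74 without replicate 3 (adjusted p = 0.00039).

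On the lower side Spns2, the exporter of sphingosine-1-phosphate, stood at 8.04, 8.06 and 8.09 against 8.35, 8.42 and 8.30 (-0.29 ± 0.06, limma adjusted p = 0.113). The arrays of each group differed by little, and the difference did not pass the threshold. Cacnb1, a calcium channel subunit, gave 8.83, 8.88 and 9.05 against 9.22, 9.23 and 9.25 (-0.31 ± 0.08, adjusted p = 0.232), and Usp30, a mitochondrial deubiquitinase, differed by -0.30 ± 0.07 (adjusted p = 0.190). Mt2, a metallothionein, gave 13.98, 14.54 and 14.22 against 15.01, 14.90 and 14.81 (-0.66 ± 0.18, adjusted p = 0.353), and the deubiquitinase gene Usp2 differed by -0.25 (adjusted p = 0.338). Tsga8 (-0.46), Foxi1 (-0.35), Rnf208 (-0.48), Dear1 (-0.65), Csn1s2a (-0.51) and Hif3a (-0.26) were also lower in every DMM array, with adjusted p-values from 0.113 to 0.328. Tsga8 and Hif3a lay under the negative controls, where a difference says little about RNA. Mt2 and Per1 belong to a list of 20 glucocorticoid-responsive genes and metallothioneins. Of these 13 were lower, 4 at an unadjusted p under 0.05 (Mt2, Per1, Mt1 and Fam107a) and 2 without overlap (Mt2 and Per1), and 7 were higher, 1 of them at an unadjusted p under 0.05. The list's median was -0.03, and 0.04 without DMM replicate 3. Its defining members Fkbp5 (-0.05) and Tsc22d3 (-0.04) had overlapping groups, as had Mt1 (-0.29).

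The same contrast at 4 and 8 weeks uses other arrays. Arntl was higher in DMM at all times (0.94 at 4 weeks, limma adjusted p = 0.00304; 1.03 at 8 weeks, adjusted p = 0.00101) and Dbp lower (-1.66, adjusted p = 0.00304; -1.45, adjusted p = 0.0102). Fabp7 was higher at 8 weeks (0.89, adjusted p = 0.00101) and not past the threshold at 4 weeks (0.25, adjusted p = 0.518). Lyz1 differed by 0.15 at 4 and 0.05 at 8 weeks. The change of the DMM effect from 4 to 16 weeks was tested for every gene and reached 0.76 ± 0.21 for Lyz1 (adjusted p = 0.275), 1.05 ± 0.30 for Lyz2 (0.295), 0.49 ± 0.15 for Fabp7 (0.341), 0.68 ± 0.15 for Csf1r (0.204), 1.01 ± 0.23 for Ctss (0.204) and 1.63 ± 0.39 for Bst2 (0.239). None of these passed. Over all genes 1 passed between 16 and 4 weeks (0.00494%) and 10 between 16 and 8 weeks (0.0494%), all of them predicted genes or pseudogenes, and 0 in both tests without DMM replicate 1 (1623 and 1486 at an unadjusted p under 0.05 in limma). At an unadjusted p under 0.05 the shares were 10.6% and 8.46%.

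As lists, the immune genes had median DMM effects nearer 0 at the earlier times. At 4 weeks the medians given here were below 0 for the immune lists except class II. Of the 17 macrophage genes 2 were higher in DMM at 4 weeks and 10 at 8 weeks, with medians of -0.17 and 0.08, before 16 of 17 and 0.27 at 16 weeks. The effect at 16 weeks exceeded that at 4 weeks for all 17, for 9 of them at an unadjusted p under 0.05. Interferon-stimulated genes had medians of -0.11 and 0.10, class II genes 0.03 and 0.11, class I genes -0.10 and 0.13, lysosomal genes -0.11 and 0.08 and meningeal genes -0.01 and 0.16. Core clock genes had medians of -0.12 and -0.11, close to their 16-week value of -0.19. Differences between the lists in this respect were not tested. At 4 and 16 weeks the mean over the macrophage list was 6.77 and 6.78 in DMM arrays and 6.94 and 6.45 in naive arrays. Over the class II list it was 7.38 and 7.46 in DMM and 7.38 and 7.02 in naive arrays. Over the lysosomal list it was 9.94 and 9.97 in DMM and 10.05 and 9.67 in naive arrays. In these lists the DMM means thus differed less between these times than the naive means did, without a test.

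**Figure D5:**
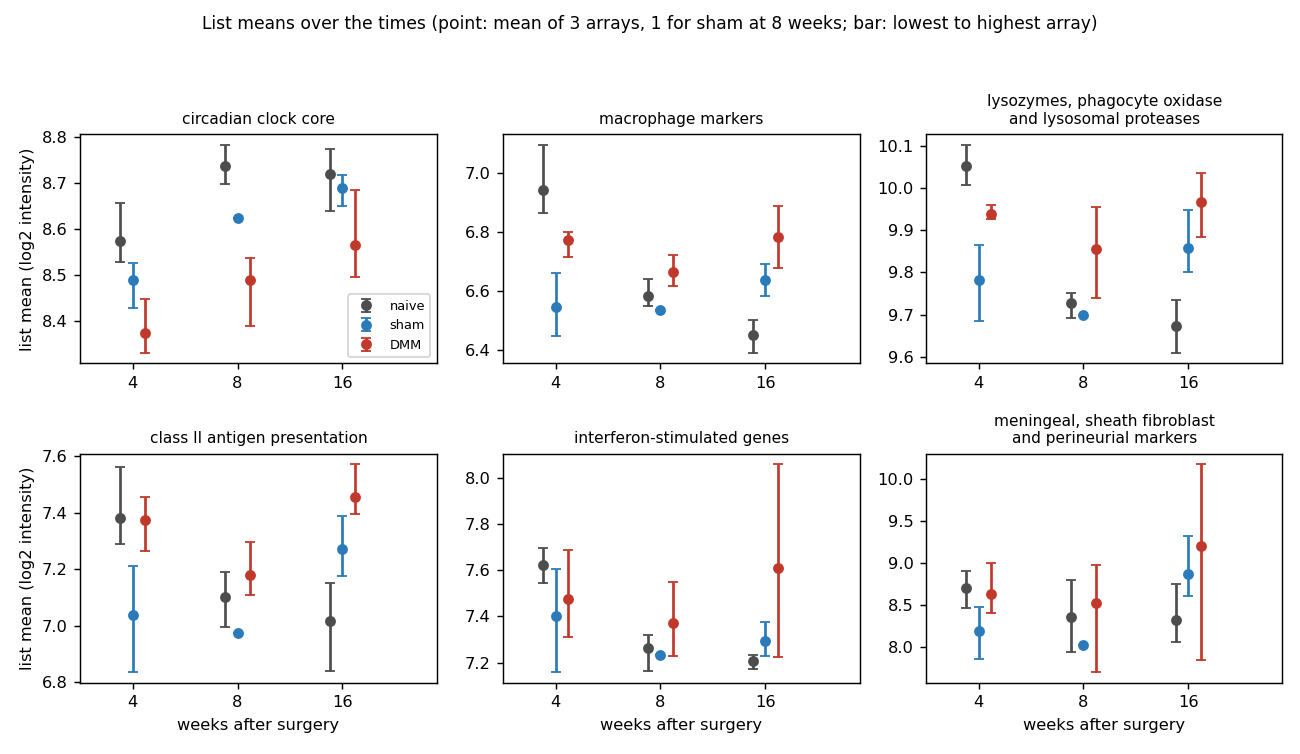
Mean of 6 gene lists (log2, vertical axis) in naive, sham and DMM arrays at 4, 8 and 16 weeks (horizontal axis); points are group means over 3 arrays (1 array for sham at 8 weeks) and bars run from the lowest to the highest array. For the macrophage list the naive means are lower at 16 than at 4 weeks, and the groups lie apart at 16 weeks, when the naive arrays run from 6.39 to 6.50 and the DMM arrays from 6.68 to 6.89.

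Naive ganglia themselves differed between times. Each time had its own age, so age cannot be told apart from the collection of the tissue or the run of the arrays at that time. Between naive mice killed at 4 and 16 weeks, 14 and 26 weeks old, 3811 genes passed the threshold (18.8%), 2579 of them lower at the later time (12.7%), in a comparison that uses the same naive arrays as the one with DMM. Among them were Fabp7, which fell by 0.66 (limma adjusted p = 0.000702), Lyz1, which fell by 0.84 (0.00100), Lyz2, which fell by 1.03 (0.00291), Csf1r, which fell by 0.68 (0.000434), Ctss, which fell by 1.09 (0.000363), and Bst2, which fell by 1.57 (0.0012). The DMM arrays at 16 weeks lay nearer to the naive level of 4 weeks, a difference that was not tested: Lyz1 had means of 7.98 in DMM at 16 weeks and 7.90 in naive ganglia at 4 weeks, Csf1r 7.59 and 7.74, and Fabp7 17.60 and 17.51. Of the 17 macrophage genes 16 were lower in naive ganglia at 16 than at 4 weeks, 10 of them past the threshold, with a median of -0.52 beside -0.07 over all genes. Interferon-stimulated and class II genes had medians of -0.34 and -0.52. Sham ganglia did not show this order: the mean over the macrophage list was 6.54 ± 0.11 at 4 weeks and 6.64 ± 0.05 at 16 weeks (SD, n = 3 each), beside 6.94 and 6.45 in naive ganglia, a comparison without a test. Arntl also fell, by 0.41 (adjusted p = 0.0221), and core clock genes had a median of 0.08.

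How often the sham mean of the same time lay above naive and below DMM varied with the list. It did so for 15 of the 17 macrophage genes, 23 of 35 interferon-stimulated genes, 20 of 28 meningeal genes, 10 of 14 class I genes and 6 of 9 class II genes. The counts were 10 of 18 for lysosomal, 5 of 13 for alarmin, 6 of 20 for chemokine, 2 of 7 for monocyte and 1 of 8 for dendritic cell genes. Genes with sham below naive and above DMM were not counted, so a list with more genes lower in DMM has a lower count. No share over all genes was computed. In the macrophage list the medians were 0.12 for DMM minus sham and 0.15 for sham minus naive, comparisons that share the DMM or the naive arrays with the main one. For Arntl these differences were 0.91 and 0.25 and for Dbp -1.18 and -0.01, whereas for Fabp7 they were 0.35 and 0.39 and for Lyz1 0.29 and 0.62. The sham level was thus nearer to naive for Arntl and Dbp, about midway for Fabp7 and nearer to DMM for Lyz1. Past the threshold was 1 gene between sham and naive ganglia (0.00494%), the predicted gene Gm12481 (0.45, limma adjusted p = 0.0179).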

How the data were processed

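Total RNA of ganglia L3 to L5 was biotin-labelled by the manufacturer's standard protocol, per the labels. The authors deposited log2 intensities with 1 value per probe set; the log2 scale was read from the values, and how arrays were normalized and probes summarised is not given in the sources used here. Of 72685 probe sets 6729 were controls and 30604 carried 1 gene symbol in the platform annotation (827 symbols updated by Entrez identifier); 2146 with several and 33206 with none were left out. For the 355 genes with several probe sets the one of highest mean was used, and genes above the 40th percentile of probe set means (4.52) were tested. That limit lies under the negative controls, so a tested gene may hold little RNA.

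A mean for each group was fitted to the 25 arrays with limma 3.58.1 in R 4.3.3 (16 residual degrees of freedom), followed by eBayes with a constant prior, two-sided, adjusted by Benjamini-Hochberg over all genes tested; the procedure was tested on simulated data. A further 6 arrays of the same contrast at each of 4 and 8 weeks, sham arrays and naive arrays of 4 weeks gave the other contrasts from the same fit. The arrays' number limits the precision.

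The members, the 50 gene lists (955 entries, 733 tested) and the tests were chosen with earlier results of these data known, and a list's counts and median are descriptions. Named were genes past the threshold, up to 12 higher and 12 lower genes of smallest unadjusted p without overlap (predicted genes and pseudogenes counted, not named), each list's defining members and up to 4 more of smallest p, and the pain genes. Alternatives were no filter, a stricter filter, quantile and cyclic loess normalization, a trended robust prior, array weights, only the 6 or 9 arrays, all transcript probe sets, the replicate number as a block, and each array left out. Equal numbers were not taken to pair DMM with naive arrays. Promoters were searched in Python 3.11.15, with figures by matplotlib 3.10.9.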

Additional observations from a re-analysis of the deposited data

Results flagged for a closer look

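The DMM effect, DMM minus naive, differed between times past the adjusted threshold of limma for 1 gene between 16 and 4 weeks and for 10 between 16 and 8 weeks. All are predicted genes or pseudogenes and are named here because they passed this test. Without DMM replicate 1 none of either kind passed, with 1623 and 1486 genes at an unadjusted p under 0.05. Between 16 and 4 weeks Gm12599 had an effect larger by 0.66 (adjusted p = 0.0401). Its values at 16 weeks were 8.49, 8.60 and 8.42 for DMM against 8.13, 8.14 and 8.00 in naive ganglia.

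Between 16 and 8 weeks the ribosomal protein pseudogenes Rpl35a-ps2 (0.94), Rpl35a-ps3 (0.82), Rpl35a-ps4 (0.82), Rpl35a-ps5 (1.03) and Rpl35a-ps6 (0.82) differed, each with an adjusted p of 0.0156. The values of Rpl35a-ps3, Rpl35a-ps4 and Rpl35a-ps6 are identical in every array, so these count as 1 measurement, and the pseudogenes resemble each other and their parent gene. Rpl35a-ps2 stood at 10.43, 10.40 and 10.25 in DMM against 10.01, 9.96 and 10.02 at 16 weeks, and was lower in DMM at 8 weeks (-0.57). The predicted genes were Gm12481 (0.52, adjusted p = 0.0302), Gm14541 (0.65, 0.0479), Gm15727 (0.79, 0.0310), Gm2389 (1.03, 0.0212) and Gm4963 (0.62, 0.0258). All 10 had a larger DMM effect at 16 than at 8 weeks.

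Probe sets outside the gene counts also passed the threshold between DMM and naive ganglia at 16 weeks. A probe set with several gene symbols differed by -0.96 (limma adjusted p = 0.0236), at 5.55, 5.73 and 5.67 in DMM against 6.61, 6.78 and 6.43. One with no symbol differed by 1.07 (adjusted p = 0.0208), at 6.52, 7.11 and 6.91 against 5.68, 6.09 and 5.56. In both the groups did not overlap.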

How the results depend on the processing

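Arntl, Fabp7 and Lyz1 kept their direction under all 15 alternatives run for single genes, and the adjusted p stayed under 0.05 in 13, 10 and 7 of them. The 3 genes past the threshold became 8 with the stricter filter, 0 with only the 6 arrays (1205 in limma at an unadjusted p under 0.05), 0 with only the 9 arrays of 16 weeks (1527 unadjusted), 17 with array weights and 5 over all transcript probe sets, and with 1 array left out from 1 (DMM replicate 1, or either of naive replicates 1 and 3, left out) to 325 (without DMM replicate 3). Array weights gave DMM replicate 3 a weight of 0.553, the lowest of the 16-week arrays. The gene whose DMM effect differed between 16 and 4 weeks (1) became 0 with no filter, 0 with cyclic loess and 0 with the replicate block (1992 to 2633 at an unadjusted p under 0.05 in limma), and 0 to 16 with 1 array left out: 16 without DMM replicate 3, 2 without naive replicate 2 and 0 without any other array (1623 to 1746 unadjusted). The 10 genes that differed between 16 and 8 weeks became 4 with quantile normalization, 6 with the replicate block and 0 to 10 with 1 array left out, 0 being without DMM replicate 1 (1486 unadjusted) and 5 without DMM replicate 3. The median of the macrophage list was 0.45 with the stricter filter and 0.24 to 0.40 with 1 array left out, that of class II 0.48 to 0.74 and that of alarmins 0.26 to 0.32. The cause was not tested in these cases. The medians of the core clock, lysosomal, class I, interferon-stimulated, meningeal, matrix and collagen lists kept their sign and moved by less than the spread between arrays. That spread, the SD of the list means, includes DMM replicate 3. A list in which that array stood apart could thus move far without exceeding it. Among the DMM arrays the SD was 1.22 for meningeal and 0.10 for macrophage genes. With 1 array left out, the meningeal median ran from 0.27 to 1.26 and the matrix median from 0.04 to 0.66. The class I median ran from 0.09 to 0.44 and the interferon-stimulated median from 0.15 to 0.50. Among the lists not recomputed under every alternative, medians close to 0 turned: without DMM replicate 3 the glucocorticoid list went from -0.03 to 0.04, injury from 0.03 to -0.01 and opioid from 0.01 to -0.05, and without DMM replicate 2 immediate early genes went from 0.03 to -0.05 and mural cells from 0.02 to -0.07. The B cell, mast cell, dendritic cell and endothelial medians also changed sign without 1 of these arrays.

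No label ties arrays of equal number to a litter, batch or day. For this reason the numbers were not taken to pair DMM with naive arrays. Deviations of DMM and naive arrays with the same number correlated at -0.09, 0.32 and 0.11, and those with different numbers at -0.28 to 0.18. Sham and naive arrays with the same number correlated at 0.11, 0.22 and 0.31, and sham and DMM arrays at -0.36, 0.29 and 0.13. For numbers 2 and 3 all of these same-number correlations were above 0. Whether arrays of equal number share a factor was not tested. With the replicate block 3 genes of the main comparison passed the threshold, and Lyz1 missed it (adjusted p = 0.103), while Arntl (0.00753) and Fabp7 (0.0215) passed. Naive replicate 1 correlated best with DMM replicate 3.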

Other observations

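Genes of ribosomal proteins were higher in DMM than in naive ganglia at 16 weeks by small amounts. All 8 tested were higher, with a median of 0.12 beside 0.01 over all genes, and none passed the threshold of limma. Without overlap 2 were higher, beside 6.63% of all genes. Rps4x stood at 9.81, 9.92 and 9.78 in DMM against 9.59, 9.67 and 9.66 (0.20 ± 0.06, limma adjusted p = 0.462), and Rpl7 at 8.01, 8.02 and 7.98 against 7.89, 7.84 and 7.68 (0.20 ± 0.08, adjusted p = 0.521). Sham arrays were above the naive mean for all 8. Naive ganglia at 16 weeks were lower than at 4 weeks for all 8, for 5 of them past the threshold, in a comparison that shares the naive arrays.

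Genes of oxidative phosphorylation differed by a median of 0.05, with 18 of 22 higher. Sodium channel genes differed by a median of -0.04, with 1 of 11 higher.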
